A study of Mus musculus with 18 samples.

Results

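The nuclear-encoded genes of oxidative phosphorylation were followed in 18 bulk RNA-seq libraries of mouse tumours. They were chosen by name: protein-coding genes whose symbols start with Nduf, Uqcr, Atp5, Cox4i, Cox5, Cox6, Cox7 or Cox8, together with Sdha, Sdhb, Sdhc, Sdhd and Cyc1, and without pseudogenes. The rule used no measured value and found 94 of the 37620 gene IDs in the files. By role these were 36 subunits of complex I, 8 complex I assembly factors (Ndufaf genes), 4 subunits of complex II, 9 of complex III, 12 of complex IV, 17 genes of complex V, the 3 muscle isoforms Cox6a2, Cox7a1 and Cox8b, and 5 other isoforms of restricted tissues.

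The tumours were MO4, an ovalbumin-expressing line made from B16F10 mouse melanoma cells, and every group carried them. C57BL/6 mice received 100000 MO4 cells in each hindlimb on day 0. In the IFN-alpha-pMC group, IFN-α-iPSC-pMCs, which are cells derived from induced pluripotent stem cells, were placed next to the right tumour on days 5, 6 and 7 at 1000000 cells a time. The pMC group received iPSC-pMCs in the same way, and the control group received no cells. RNA was taken on day 11 from right tumours, on the side of the cells, and from left tumours, which were distant from them, which gave 6 groups of 3 libraries. The labels do not state the age of the mice, whether the 3 tumours of a group grew in different mice, whether a right and a left tumour of the same number shared a mouse, or whether samples were pooled, so the p-values reflect only the spread between libraries, which may be technical. In bulk tumour RNA, fewer cells of a type and less RNA per cell cannot be told apart.

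Mitochondria make most of the ATP of a resting cell by oxidative phosphorylation. Complexes I and II pass electrons from NADH and succinate to coenzyme Q, complex III passes them on to cytochrome c, and complex IV passes them to oxygen. Complexes I, III and IV pump protons across the inner membrane, and complex V, the ATP synthase, uses their return to make ATP. Most subunits are encoded in the nucleus and are expressed in nearly every cell, while Cox6a2, Cox7a1 and Cox8b take the place of general subunits of complex IV in striated muscle, and Cox7a1 and Cox8b also do so in brown fat.

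Libraries held 14.35 to 23.43 counts in units of 1000000, so that a gene with no count in a library may still hold up to 3 counts, or 0.128 to 0.209 CPM, the count per 1000000 counts of its library. These floors cover counting error only. The tumour label held in every library: 9 melanocyte markers summed to 30100 to 45000 CPM. T cell markers summed to 380 to 487 CPM in IFN-alpha-pMC right tumours, against 32.3 to 55.7 CPM in pMC right tumours and 20.5 to 45.7 CPM in control right tumours. On the left they summed to 78.1 to 122 CPM in IFN-alpha-pMC tumours, 37.5 to 49.6 CPM in pMC tumours and 23.6 to 41.1 CPM in control tumours. Macrophage markers summed to 1630 to 1890 CPM in IFN-alpha-pMC right tumours, 806 to 1420 CPM in pMC right tumours and 667 to 1600 CPM in control right tumours, and on the left to 1210 to 1850 CPM in IFN-alpha-pMC tumours, 841 to 1370 CPM in pMC tumours and 715 to 872 CPM in control tumours. Red blood cell markers ran the other way. On the right they summed to 18.2 to 73.8 CPM in IFN-alpha-pMC tumours, 113 to 322 CPM in pMC tumours and 69.3 to 501 CPM in control tumours. Their sums on the left were 30.9 to 82.9 CPM in IFN-alpha-pMC tumours, 88.9 to 227 CPM in pMC tumours and 45.2 to 150 CPM in control tumours. IFN-alpha-pMC and control tumours overlapped on both sides. In IFN-alpha-pMC libraries 64.7 to 70.7% of reads were assigned to a gene, against 60.2 to 66.7% in pMC and control libraries together. The counter listed 4.04 to 6.12% of reads in IFN-alpha-pMC libraries as overlapping no feature that it counted. In pMC and control libraries together this share was 6.87 to 12.2%. The part of these cell markers and read shares in the members' values was not tested. The 3 libraries that were known from earlier results to stand apart (IFN-alpha-pMC right 3, IFN-alpha-pMC left 1 and control right 3) enter every result below, and the members' medians and counts are also given without them.

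Promoter sequences are shown for 4 members named in the results: the muscle isoforms Cox8b and Cox7a1, the general partner Cox8a, and Sdha, which ran against the other members. Ndufs1 and Cox6a2, which passed the test below, had no matched promoter and are not shown. Each sequence is 300 bases, from 250 before to 50 after the gene's start, read 5′ to 3′ on the gene's strand from RefSeq on build GRCm38.p6. Capitals mark CAGCTG (an E-box of the kind that muscle factors bind) in Cox8b, CCGGAAG on the opposite strand, which reads CTTCCGG here (the ETS core bound by GABP), in Cox8a, and GCGCA, any base and GCGC in a row (the motif of NRF1, a regulator of respiratory genes) in Sdha. Cox8b lies at chr7:140900397-140900696 on the minus strand, Cox8a at chr19:7217567-7217866 on the minus strand, Cox7a1 at chr7:30183921-30184220 on the plus strand and Sdha at chr13:74350191-74350490 on the minus strand.
Cox8b: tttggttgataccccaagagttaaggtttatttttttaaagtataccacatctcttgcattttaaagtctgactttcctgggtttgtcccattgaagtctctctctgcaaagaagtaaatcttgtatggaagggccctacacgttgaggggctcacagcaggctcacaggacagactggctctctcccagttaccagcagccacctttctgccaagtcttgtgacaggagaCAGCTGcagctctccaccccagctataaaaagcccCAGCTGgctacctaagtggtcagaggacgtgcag
Cox8a: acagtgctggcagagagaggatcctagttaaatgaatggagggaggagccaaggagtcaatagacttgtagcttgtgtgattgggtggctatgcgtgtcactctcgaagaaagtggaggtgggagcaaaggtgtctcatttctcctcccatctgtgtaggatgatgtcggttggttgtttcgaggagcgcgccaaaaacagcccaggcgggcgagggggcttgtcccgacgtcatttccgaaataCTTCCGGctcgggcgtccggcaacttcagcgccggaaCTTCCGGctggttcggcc
Cox7a1: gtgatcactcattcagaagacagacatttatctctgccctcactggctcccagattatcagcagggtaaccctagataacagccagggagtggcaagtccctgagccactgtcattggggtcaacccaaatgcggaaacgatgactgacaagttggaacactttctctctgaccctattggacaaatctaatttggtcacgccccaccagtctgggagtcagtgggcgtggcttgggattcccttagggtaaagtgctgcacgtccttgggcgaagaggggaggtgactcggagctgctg
Sdha: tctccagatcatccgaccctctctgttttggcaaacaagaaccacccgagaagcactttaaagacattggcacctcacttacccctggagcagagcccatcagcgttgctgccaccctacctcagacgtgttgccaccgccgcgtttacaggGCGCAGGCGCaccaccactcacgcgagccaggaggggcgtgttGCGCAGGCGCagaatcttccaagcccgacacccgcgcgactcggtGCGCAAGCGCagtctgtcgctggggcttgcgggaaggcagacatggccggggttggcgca

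Cox8b had 2 copies of CAGCTG, Cox8a had 2 of the ETS core, and Sdha had 3 of the NRF1 motif. Cox7a1 had none of the 5 motifs searched. Promoters were matched for 76 of the 94 members, and for 72 of the 86 that are neither muscle isoforms nor other restricted isoforms. Both strands were searched for these exact letters. The NRF1 motif stood in 18 of the 72 promoters (25%), against 6.66% of the 17492 promoters of all protein-coding genes. The ETS core CCGGAAG stood in 17 (23.6%), against 11.9%, and AAGATGGCG, the motif of YY1, in 7 (9.72%), against 1.92%. CAGCTG was found in 5 (6.94%), against 15.1%, and CTA and TAG with any 4 bases between them, the motif of the muscle factor MEF2, in 2 (2.78%), against 3.47%. A match of letters is a description and not a bound site.

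Most members were abundant in every tumour. Levels between genes were compared as CPM per kilobase of transcript, averaged over 18 libraries. Atp5b, the catalytic beta subunit of ATP synthase, was highest at 1540 ± 191 CPM per kilobase (SD). It was followed by Uqcr10, a small subunit of complex III, at 1330 ± 637, Ndufa4, a subunit of complex IV in spite of its name, at 1320 ± 587, and Cox7b of complex IV at 1310 ± 661. These neighbours differed by less than their SDs. The median level of a role was 908 CPM per kilobase in complex IV, 604 in complex V, 420 in complex III, 216 in complex II and 179 in complex I. The complex I assembly factors, which are not part of the finished enzyme, had a median of 22.1.

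The restricted isoforms were low. The muscle isoforms had a median of 14.2 CPM per kilobase, with Cox7a1 at 78.9, Cox6a2 at 14.2 and Cox8b at 5.72. The 5 other restricted isoforms had a median of 0.12. Among them Ndufa4l2, a hypoxia-induced relative of Ndufa4, ran from 1.07 to 3.29 CPM over the 18 libraries, and Cox4i2, the lung form of Cox4, from 0.314 to 1.25 CPM. Cox6b2 and Cox7b2 held 24 and 7 counts over all libraries and Cox8c, a testis isoform, held 0. These last 3 did not pass the filter on low counts, so that 91 members were tested, 88 of them outside the muscle isoforms.

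Across the libraries, the 88 members moved largely together, and 4 libraries set the range. For each member, log2 CPM was taken minus its mean over the 18 libraries. The median over the 88 members was 0.04, 0.06 and −0.7 in IFN-alpha-pMC right tumours 1 to 3, then 0.05, 0.07 and 0.31 in pMC right tumours and −0.26, −0.7 and 0.56 in control right tumours. On the left it was 0.95, 0.01 and −0.09 in IFN-alpha-pMC tumours, 0.02, 0.08 and 0.08 in pMC tumours, and −0.19, −0.05 and −0.15 in control tumours. The high libraries were thus IFN-alpha-pMC left 1 and control right 3, and the low ones IFN-alpha-pMC right 3 and control right 2. In control right 3, 86 of the 88 members lay above their own mean, and in IFN-alpha-pMC left 1, 80 did, against 2 each in IFN-alpha-pMC right 3 and control right 2.

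**Figure D1:**
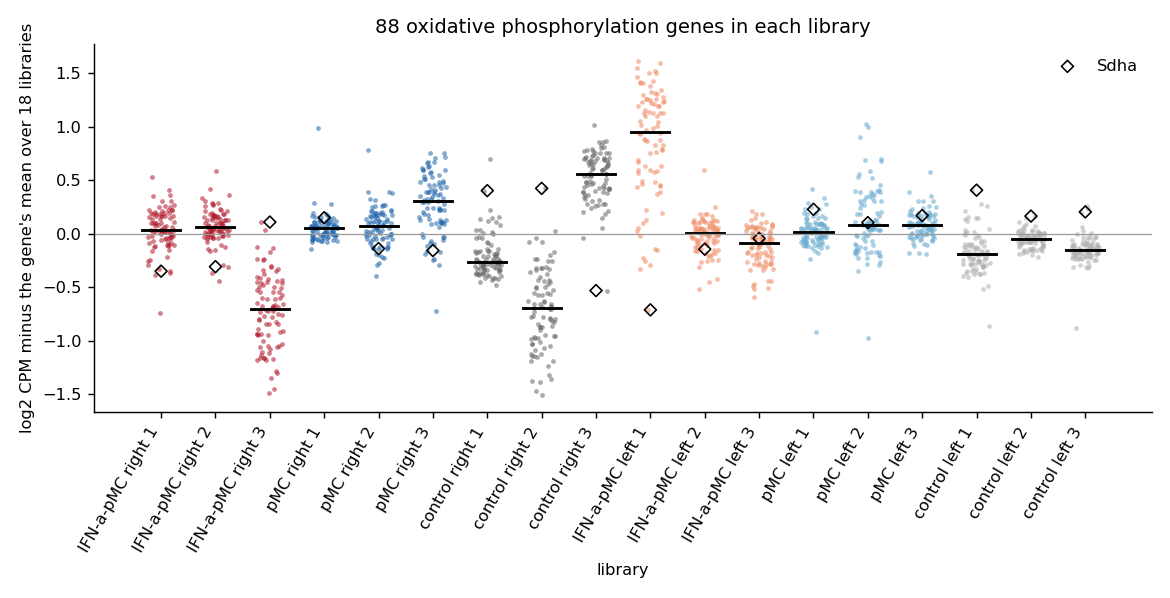
Log2 CPM of each of the 88 tested members outside the muscle isoforms, minus the gene's mean over 18 libraries (vertical axis), by library (horizontal axis). Each point is a member, the bar is the median of the library and the open diamond is Sdha. The median reached 0.95 in IFN-alpha-pMC left 1 and −0.7 in IFN-alpha-pMC right 3 and in control right 2.

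Before any correction for transcript length, differences between the right groups, and between IFN-alpha-pMC and the other left groups, were smaller than the SD of at least 1 of the groups compared. The mean of the library medians was −0.2 ± 0.43 in IFN-alpha-pMC right tumours, 0.14 ± 0.14 in pMC right tumours and −0.13 ± 0.64 in control right tumours (SD, n = 3). On the left it was 0.29 ± 0.58 in IFN-alpha-pMC tumours, 0.06 ± 0.03 in pMC tumours and −0.13 ± 0.07 in control tumours (SD, n = 3). The pMC and control left tumours lay further apart than their SDs.

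Ribosomal protein genes and a measure of transcript length moved with these library medians. Cytosolic ribosomal protein genes (77 tested) had a median on the same scale of −0.63 in IFN-alpha-pMC right 3, −1.01 in control right 2, 0.71 in control right 3 and 1.12 in IFN-alpha-pMC left 1. Mitochondrial ribosomal genes (76 tested) stood at −0.62, −0.74, 0.56 and 0.89 in the same 4 libraries. The members' transcripts had a median of 891.5 nucleotides against 2795 for all genes tested. Over all genes, the Spearman correlation of a gene's deviation with its transcript length was −0.49 in IFN-alpha-pMC left 1 and −0.51 in control right 3, against 0.4 in IFN-alpha-pMC right 3 and 0.56 in control right 2. With an offset for transcript length and GC content in each library, the members' medians in these libraries were 0.4 in IFN-alpha-pMC left 1 and 0.2 in control right 3, and −0.4 in IFN-alpha-pMC right 3 and −0.26 in control right 2. The group means with this offset were −0.22 ± 0.17 in IFN-alpha-pMC right tumours, 0.12 ± 0.05 in pMC right tumours and −0.03 ± 0.23 in control right tumours (SD, n = 3), so that IFN-alpha-pMC and pMC right tumours then lay further apart than both SDs. On the left they were 0.08 ± 0.27 in IFN-alpha-pMC tumours, 0.08 ± 0.04 in pMC tumours and 0.01 ± 0.03 in control tumours (SD, n = 3). The part of length, GC content or RNA quality in the members' values was not tested further.

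Among the 88 members Atp5a1, the alpha subunit of ATP synthase (2471 nucleotides), varied least. It ran from 1580 to 2150 CPM over the 18 libraries, a ratio of 1.36. Uqcrc1, a core subunit of complex III (1653 nucleotides), had a ratio of 1.45. At the other end, Ndufb4 (971 nucleotides), an accessory subunit of complex I, ran from 85.2 to 684 CPM, a ratio of 8.02. Atp5e, the epsilon subunit of ATP synthase (421 nucleotides), had a ratio of 7.95, Ndufb8 (680 nucleotides) of 7.85 and Uqcrh, the hinge protein of complex III (547 nucleotides), of 7.7.

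Sdha, the flavoprotein of complex II that oxidises succinate (2900 nucleotides), ran the other way. It had 203, 209 and 279 CPM in IFN-alpha-pMC right tumours, 287, 235 and 232 CPM in pMC right tumours, and 342, 347 and 179 CPM in control right tumours. On the left it had 158, 234 and 251 CPM in IFN-alpha-pMC tumours, 303, 278 and 291 CPM in pMC tumours, and 343, 290 and 298 CPM in control tumours. It was lowest in IFN-alpha-pMC left 1 and control right 3, where most other members were highest.

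IFN-alpha-pMC against pMC in right tumours sets the IFN-alpha form of the cells against the cells alone, and here 1 of the 88 members passed the test and 2 of the 3 muscle isoforms did. Ndufs1, the iron-sulphur subunit of complex I that carries electrons from NADH, fell. Cox6a2 and Cox8b rose, and Cox7a1 was lower without passing the test. The threshold was an adjusted p of 0.05 in edgeR's quasi-likelihood test, with Benjamini-Hochberg adjustment over 14849 genes. Of all genes tested, 8.88% were called higher and 1.21% lower.

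Ndufs1 had 228, 216 and 194 CPM in IFN-alpha-pMC right tumours, against 294, 309 and 313 CPM in pMC right tumours. The groups did not overlap. The log2 fold change was −0.52 ± 0.14 (SE; edgeR's quasi-likelihood adjusted p = 0.021). Control right tumours had 285, 269 and 275 CPM, also above all the IFN-alpha-pMC values. Against them the log2 fold change was −0.38 ± 0.14 (edgeR's quasi-likelihood adjusted p = 0.094), which did not pass. On the left, Ndufs1 had 239, 301 and 278 CPM in IFN-alpha-pMC tumours, 280, 217 and 277 CPM in pMC tumours and 296, 275 and 260 CPM in control tumours, and these groups overlapped.

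The call of Ndufs1 depended on the processing. Against pMC right tumours it was kept with 9 of 16 alternatives. It was lost without IFN-alpha-pMC right 2 (edgeR's quasi-likelihood adjusted p = 0.0646), pMC right 2 (0.0545) or pMC right 3 (0.0662), and with a muscle score as covariate (0.165). The call was also lost with no filter on low counts, with only the groups compared and with the replicate number as a block (0.23). Over the 16 alternatives its adjusted p ran from 3.71e-05 to 0.23, and its log2 fold change from −0.69 to −0.48. Against control right tumours it passed with 5 of 16 alternatives, among them DESeq2 (adjusted p = 0.00269). The difference between the right and the left effect against pMC was −0.6 ± 0.2 (edgeR's quasi-likelihood adjusted p = 0.245), and DESeq2 gave an adjusted p of 0.00944.

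**Figure D2:**
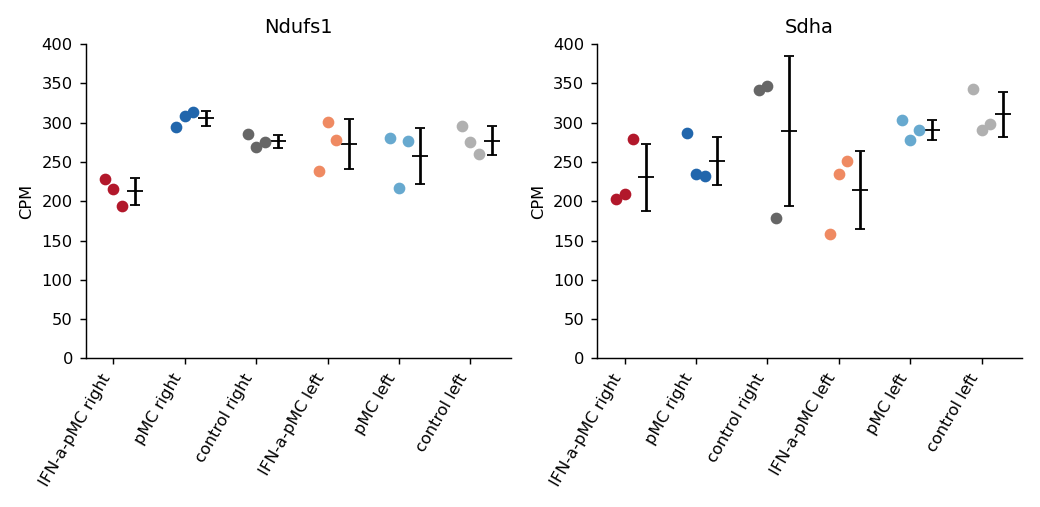
CPM of Ndufs1 and Sdha in each library (points) by group, with the mean and SD over 3 libraries (bars). Ndufs1 lies at 194 to 228 CPM in IFN-alpha-pMC right tumours, below all pMC and control right tumours, and Sdha overlaps between the right groups.

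Most of the other members lay a little lower in IFN-alpha-pMC right tumours than in pMC right tumours, without passing the test. Of the 88, 7 had a positive and 81 a negative log2 fold change (44.8% of all genes were positive), and the median was −0.28, beside −0.04 over all genes. The size of this median rested on IFN-alpha-pMC right 3: without it the median was −0.1, with 31 positive and 57 negative, and leaving out any other library of these groups kept it between −0.41 and −0.2. Without the 3 libraries that stand apart it was −0.12. At an unadjusted p under 0.05, 0 members were higher and 2, Ndufs1 and Ndufb2, were lower, against 14.1% and 6.11% of all genes. The groups did not overlap for 16 members, all lower, while 16.2% of all genes were higher and 8.87% lower without overlap. Every tested member of complexes II, III and V had a negative value, with medians of −0.24, −0.49 and −0.33. Complex I had a median of −0.19 and complex IV of −0.3. Ndufb2, a small accessory subunit of complex I, had 18, 22.1 and 13.4 CPM in IFN-alpha-pMC right tumours, against 36.8, 24.5 and 39.3 CPM in pMC right tumours, with a log2 fold change of −0.91 ± 0.38 (edgeR's quasi-likelihood adjusted p = 0.172). Uqcrc2, a core subunit of complex III, had 545, 545 and 317 CPM, against 590, 703 and 994 CPM in pMC right tumours, with −0.7 ± 0.36 (edgeR's quasi-likelihood adjusted p = 0.296). Both sets of 3 values lay apart from one another.

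The other subunits given here had log2 fold changes from 0.04 to −0.94 in this comparison, and none passed the test. The highest value of the 88 members was that of the isoform Ndufa4l2, at 0.57 ± 0.32 (edgeR's quasi-likelihood adjusted p = 0.348). Uqcrc1 stood at −0.01 ± 0.16 on the log2 scale, and Ndufv1, the subunit of complex I that binds NADH, at −0.18 ± 0.16. Cox5a of complex IV stood at 0.04 ± 0.2, Atp5a1 at −0.16 ± 0.14 and Sdha at −0.13 ± 0.23. Atp5b stood at −0.21 ± 0.17 and Cyc1, cytochrome c1 of complex III, at −0.41 ± 0.27. For Atp5a1, Atp5b and Cyc1 every IFN-alpha-pMC value lay below every pMC value. Cox4i1, the regulatory subunit of complex IV, stood at −0.59 ± 0.44 and Ndufb8, an accessory subunit of complex I, at −0.94 ± 0.55. Ndufb8 and Cox4i1, with the largest values of these, also had the largest errors.

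With the offset for transcript length and GC content, 15 of the 88 members were called lower in IFN-alpha-pMC than in pMC right tumours and 0 higher, while 6.71% of all genes were called lower and 11.3% higher. The members' median was −0.32. The 15 held Ndufs1 (−0.63 ± 0.11, edgeR's quasi-likelihood adjusted p = 0.000543), Atp5s, an ATP synthase coupling factor (−0.57 ± 0.11, adjusted p = 0.00168), Ndufaf7, a methyltransferase of complex I assembly (−0.55 ± 0.12, adjusted p = 0.00523), and Cox7b (−0.81 ± 0.24, adjusted p = 0.0294). Without the 3 libraries that stand apart, 5 members were called lower and 0 higher (16.1% and 12.5% of all genes), which were Ndufs1, Ndufb2, Uqcrc2, Ndufaf7 and Sdha. With both changes 42 were called lower and 0 higher (19.3% and 14.1% of all genes), and the median was −0.3. That last setting was added after the counts had been seen to move.

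Cox6a2 and Cox8b were the members with the largest difference. Cox6a2, the heart and skeletal muscle form of subunit 6A, had 25.4, 27.3 and 30.8 CPM in IFN-alpha-pMC right tumours, against 1.88, 2.01 and 1.82 CPM in pMC right tumours. The log2 fold change was 3.86 ± 0.92 (edgeR's quasi-likelihood adjusted p = 0.0108), and it did not pass without pMC right 1 (adjusted p = 0.0534) or pMC right 2 (adjusted p = 0.0525). Control right tumours had 14.3, 0.698 and 3.13 CPM, lower than every IFN-alpha-pMC value but far apart from one another. Against these the log2 fold change was 2.2 ± 0.84 (edgeR's quasi-likelihood adjusted p = 0.109), and without control right 1 it was 3.85 (adjusted p = 0.0172).

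Cox8b, the muscle and brown fat form of subunit 8, had 4.37, 5.39 and 4.62 CPM in IFN-alpha-pMC right tumours, against 1.16, 0.911 and 1.12 CPM in pMC right tumours. The log2 fold change was 2.16 ± 0.63 (edgeR's quasi-likelihood adjusted p = 0.038). Its call was lost when any one of these 6 libraries was left out, with adjusted p between 0.052 and 0.139. In control right tumours it had 2.51, 0.567 and 0.75 CPM, which gave 1.89 ± 0.62 (edgeR's quasi-likelihood adjusted p = 0.0636). The general partners did not follow: Cox6a1 stood at −0.05 ± 0.22 and Cox8a at −0.21 ± 0.24 between IFN-alpha-pMC and pMC right tumours. The share of Cox6a2 in the sum of Cox6a2 and Cox6a1 was 4.06, 4.28 and 7.06% in IFN-alpha-pMC right tumours, against 0.295, 0.408 and 0.333% in pMC right tumours.

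In distant left tumours of the IFN-alpha-pMC group the values of both isoforms were spread more widely than on the right. Cox6a2 had 23, 19.3 and 7.12 CPM in IFN-alpha-pMC left tumours, 1.25, 2.32 and 1.26 CPM in pMC left tumours, and 10, 0.805 and 0.948 CPM in control left tumours. Cox8b had 5.21, 3.69 and 1.52 CPM in IFN-alpha-pMC left tumours, 0.473, 0.816 and 0.654 CPM in pMC left tumours, and 2.54, 0.268 and 0.502 CPM in control left tumours. The IFN-alpha-pMC and pMC values did not overlap for either gene, while those of IFN-alpha-pMC and control did. Against pMC the log2 fold changes were 3.37 ± 0.92 for Cox6a2 (edgeR's quasi-likelihood adjusted p = 0.0508) and 2.42 ± 0.67 for Cox8b (adjusted p = 0.0522), just short of the threshold. Both passed without the 3 libraries that stand apart, Cox6a2 at 3.06 (edgeR's quasi-likelihood adjusted p = 0.0259) and Cox8b at 2.01 (adjusted p = 0.0414). That fit kept only IFN-alpha-pMC left 2 and 3 of their group. It called 12.7% of all genes higher and 14.9% lower, against 2.71% and 1.14% with all libraries. Against control, with all libraries, the log2 fold changes were 2.05 ± 0.85 for Cox6a2 (edgeR's quasi-likelihood adjusted p = 0.105) and 1.61 ± 0.64 for Cox8b (adjusted p = 0.0943).

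Cox7a1, the muscle form of subunit 7A, went the other way. It had 18.6, 16.9 and 9.12 CPM in IFN-alpha-pMC right tumours, against 35, 26.8 and 52.7 CPM in pMC right tumours and 29.9, 13.7 and 43.1 CPM in control right tumours. Its log2 fold change was −1.36 ± 0.49 against pMC (edgeR's quasi-likelihood adjusted p = 0.0996) and −0.96 ± 0.49 against control (adjusted p = 0.245). The IFN-alpha-pMC and pMC groups did not overlap, and the difference between them passed with 7 of 16 alternatives, DESeq2 among them (adjusted p = 0.0418). On the left it had 69.4, 16 and 17.1 CPM in IFN-alpha-pMC tumours, 39.4, 41.7 and 39.7 CPM in pMC tumours and 30.4, 28.5 and 30.1 CPM in control tumours, where IFN-alpha-pMC left 1 stood far above the other 2. The log2 fold change between IFN-alpha-pMC and pMC left tumours was −0.24 with all libraries (edgeR's quasi-likelihood adjusted p = 0.744). It was −1.3 without IFN-alpha-pMC left 1 (adjusted p = 0.0771), and −1.3 without the 3 libraries that stand apart, where it passed (adjusted p = 0.00303). On the right, without these 3 libraries, it was −1.15 between IFN-alpha-pMC and pMC tumours (edgeR's quasi-likelihood adjusted p = 0.0047). Without these 3 libraries, 14.9% of all genes were called lower on the left and 16.1% on the right. Cox7a2, the general partner of Cox7a1, had 588, 650 and 330 CPM in IFN-alpha-pMC right tumours, against 658, 603 and 815 CPM in pMC right tumours.

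**Figure D3:**
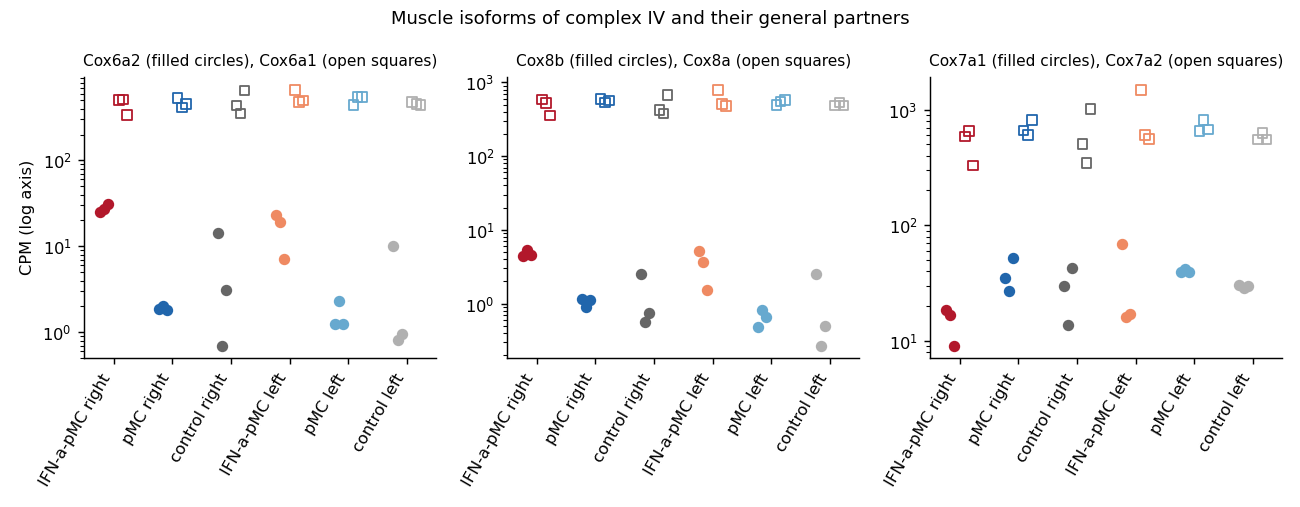
CPM (log axis) of the muscle isoforms Cox6a2, Cox8b and Cox7a1 (filled circles) and of their general partners Cox6a1, Cox8a and Cox7a2 (open squares) in each library, by group. In IFN-alpha-pMC right tumours Cox6a2 lies at 25.4 to 30.8 CPM, Cox8b at 4.37 to 5.39 CPM and Cox7a1 at 9.12 to 18.6 CPM.

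Markers of skeletal muscle fibres moved with Cox6a2 and Cox8b. The 24 markers summed to 2480 to 4870 CPM in IFN-alpha-pMC right tumours, 150 to 339 CPM in pMC right tumours and 78.6 to 1270 CPM in control right tumours. On the left they summed to 930 to 1770 CPM in IFN-alpha-pMC tumours, 66.4 to 205 CPM in pMC tumours and 67.9 to 464 CPM in control tumours. At most 1 of the 24 was at 0 in an IFN-alpha-pMC right tumour and at most 6 in a control left tumour. Of the 23 tested, 15 rose in IFN-alpha-pMC against pMC right tumours (8.88% of all genes), and 5 rose against control right tumours (8.78%). On the left 5 rose against pMC tumours (2.71% of all genes) and 6 against control tumours (4.05%). In these 4 comparisons 0 fell, against 1.14 to 2.6% of all genes. Ckm, the creatine kinase of muscle, had 146, 190 and 228 CPM in IFN-alpha-pMC right tumours, against 5.25, 9.79 and 8.46 CPM in pMC right tumours and 71, 1.22 and 20.6 CPM in control right tumours.

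Control right 1 was the highest of its group for Ckm, Cox6a2 and Cox8b alike. With a muscle score per library as covariate, the log2 fold change of Cox6a2 between IFN-alpha-pMC and pMC right tumours was 0.99 (edgeR's quasi-likelihood adjusted p = 0.418) and that of Cox8b was 0.19 (adjusted p = 0.906). This score was 2.66 to 3.52 in IFN-alpha-pMC right tumours, against −1.16 to −0.06 in pMC right tumours, so the groups did not overlap in it, and in this fit treatment and muscle content cannot be told apart. The 5 brown fat markers summed to 284 to 598 CPM, nearly all of it from Ppargc1a, a coactivator that many tissues express, which had 284 to 598 CPM. Dio2 was found in every library at 0.12 to 0.978 CPM, and Elovl3 had 1 or 2 counts in 3 libraries. The defining markers of brown fat were at or near 0: Ucp1 had 1 count in pMC left 3 and 2 in control left 3, and Cidea had 1 in control right 2, with 0 in all other libraries.

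IFN-alpha-pMC against control in right tumours gave no called member in edgeR's quasi-likelihood test: 0 of 88 rose and 0 fell, and none of the 3 muscle isoforms passed, while 8.78% of all genes were called higher and 2.01% lower. At an unadjusted p under 0.05, 0 members were higher and 3 were lower (Ndufs1, Ndufb2 and Ndufa12), against 13.8% and 10.4% of all genes. DESeq2 called 1, Ndufs1, as lower, and 4.56% of all genes lower. The members' median log2 fold change was −0.14, beside −0.03 over all genes, and 25 of 88 were positive, against 46.9% of all genes. The groups did not overlap for 2 members, Ndufs1 and Atp5a1, both lower, while 13.3% of all genes were higher and 5.31% of all genes were lower without overlap. Ndufa12, an accessory subunit of complex I, had 146, 140 and 86.6 CPM in IFN-alpha-pMC right tumours, against 172, 140 and 217 CPM in control right tumours. Its log2 fold change was −0.5 ± 0.21 (edgeR's quasi-likelihood adjusted p = 0.146). Ndufb2 had −0.92 ± 0.38 (adjusted p = 0.145), with 30.5, 19.5 and 50.8 CPM in control right tumours.

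This comparison also depended on which libraries were kept. The members' median was 0 without IFN-alpha-pMC right 3, −0.28 without control right 1 and −0.39 without control right 2. Without control right 3 alone the median was 0.33. In that fit 3946 of all genes were called in either direction. Of the 88 members 1 was called, Sdha, as lower (log2 fold change −0.58, edgeR's quasi-likelihood adjusted p = 0.0353). Without all 3 libraries that stand apart, the median was 0.5, and 55 members were called higher and 2 lower, beside 28.4% and 26.1% of all genes. Of these 57, 32 had a negative value with all libraries. The control right tumours left were then 1 and 2, whose medians over the members were −0.26 and −0.7. With the offset for length and GC content as well, 10 were called higher and 11 lower (21.5% of all genes in each direction), with a median of −0.02. With that offset and all libraries, 0 were called higher and 5 lower (11% and 5.33% of all genes): Ndufs1, Ndufa12, Ndufaf7, Ndufc1 and Atp5s.

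pMC against control in right tumours asked what the cells did without the IFN-alpha form. The count was 0 of 88 higher and 0 lower in edgeR's quasi-likelihood test, as it was over all genes (0%). There were also 0 at an unadjusted p under 0.05, against 1.26% of all genes higher and 1.16% lower, and DESeq2 called 0. The median was 0.19, beside −0.03 over all genes, and 75 of 88 members were positive, against 45.2% of all genes. For 1 member all pMC values were higher and for 0 all were lower, against 1.68% and 1.64% of all genes. The median was 0.02 without control right 1, −0.1 without control right 2, 0.1 without pMC right 3 and 0.6 without control right 3, and without all 3 libraries that stand apart 69 members were called higher and 1 lower (19.5% and 14.2% of all genes). With the length and GC offset added to this, 34 were called higher and 2 lower (12.6% and 3.82%). In both settings the control right tumours left were 1 and 2, whose medians over the members were −0.26 and −0.7 without the offset.

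**Figure D4:**
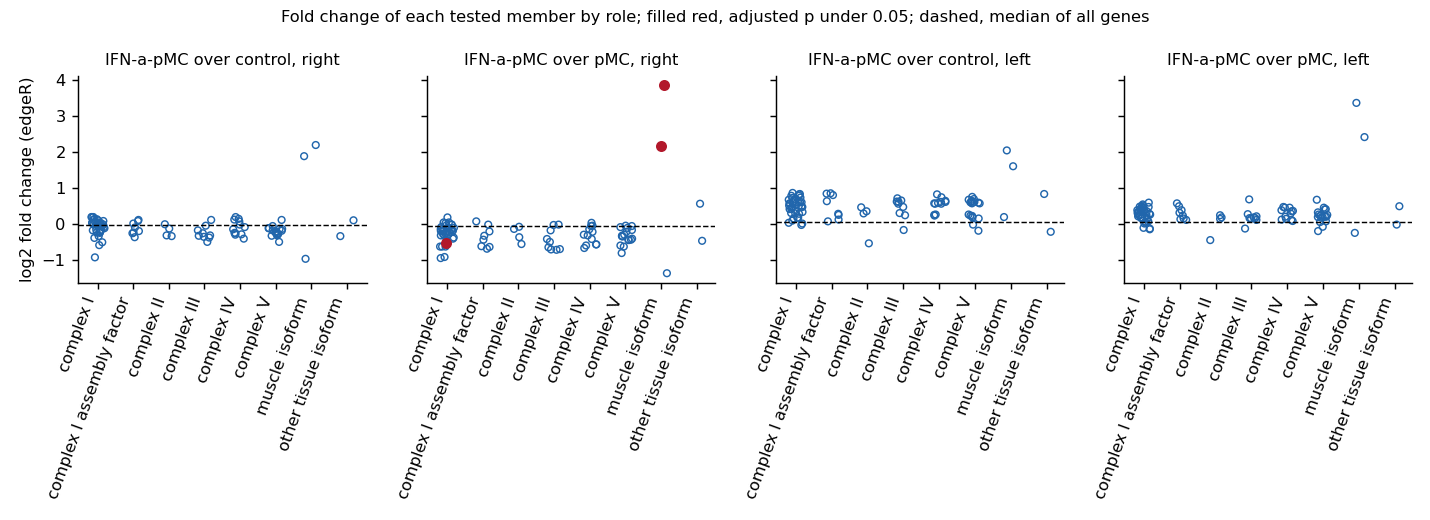
Log2 fold change of each tested member (edgeR, vertical axis) by role in 4 comparisons. Filled red points passed an adjusted p of 0.05 and the dashed line is the median of all genes; the 3 red points in IFN-alpha-pMC over pMC on the right are Cox6a2 at 3.86, Cox8b at 2.16 and Ndufs1 at −0.52.

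In distant left tumours, the members lay higher in IFN-alpha-pMC than in control tumours, and none passed the test. In edgeR's quasi-likelihood test 0 of 88 were called in either direction, against 4.05% of all genes higher and 2.6% lower, and DESeq2 called 0. At an unadjusted p under 0.05, 6 were higher and 1, Sdha, was lower, against 18.6% and 17.5% of all genes. The median log2 fold change was 0.57, beside 0.07 over all genes, and 82 of 88 were positive, against 54.1% of all genes. The groups did not overlap for 27 higher members and 1 lower one, while 25.8% of all genes were higher and 23.9% lower without overlap.

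Uqcrb, the subunit of complex III that binds coenzyme Q, had 563, 363 and 346 CPM in IFN-alpha-pMC left tumours, against 258, 290 and 280 CPM in control left tumours and 284, 239 and 268 CPM in pMC left tumours. IFN-alpha-pMC left 1 was the highest, and all 3 lay above both other groups. The log2 fold change was 0.62 ± 0.24 against control (edgeR's quasi-likelihood adjusted p = 0.0909) and 0.69 ± 0.24 against pMC (adjusted p = 0.089). Atp5j, coupling factor 6 of ATP synthase, had 733, 346 and 355 CPM, against 263, 300 and 283 CPM in control left tumours, with 0.76 ± 0.3 (edgeR's quasi-likelihood adjusted p = 0.0957). Ndufaf4, an assembly factor of complex I, stood at 0.64 ± 0.27 (adjusted p = 0.11) and Sdha at −0.53 ± 0.23 (adjusted p = 0.114), with every IFN-alpha-pMC value of Sdha below the controls.

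The size of this left difference rested on 1 library. Without IFN-alpha-pMC left 1 the members' median against control was 0.06, and leaving out any other library of these groups kept it between 0.45 and 0.74. With the length and GC offset on all libraries it was 0.08, and 0 members were called higher and 1, Atp5s, lower (3.31% and 1.19% of all genes). Without the 3 libraries that stand apart, Uqcrb was called higher (0.35 ± 0.11, edgeR's quasi-likelihood adjusted p = 0.0344) and Sdha lower (−0.37 ± 0.11, adjusted p = 0.0197), beside 13% and 15.8% of all genes. With both, 2 were called higher and 6 lower (9.23% and 10.8%).

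IFN-alpha-pMC against pMC in left tumours gave 0 of 88 higher and 0 lower in edgeR's quasi-likelihood test, against 2.71% and 1.14% of all genes. At an unadjusted p under 0.05, 3 were higher (Uqcrb, Atp5j and Ndufaf4) and 0 lower, against 15.3% and 14.7% of all genes. DESeq2 called 1, Uqcrb, as higher (adjusted p = 0.0408), and 8.46% of all genes higher. The median was 0.24, beside 0.07 over all genes, and 80 were positive, against 55% of all genes. All IFN-alpha-pMC values were higher for 13 members and lower for 1, against 21.3% and 21.9% of all genes. Without IFN-alpha-pMC left 1 the median was −0.08, without IFN-alpha-pMC left 2 it was 0.42 and without IFN-alpha-pMC left 3 it was 0.46. Without the 3 libraries that stand apart, 1 member was called higher and 8 lower (12.7% and 14.9% of all genes), and with the length and GC offset added 3 and 30 (8.55% and 12.6%). Of these 30, 25 had a positive value with all libraries and no offset.

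pMC against control in left tumours gave 0 calls among the members and over all genes (0%) in edgeR's quasi-likelihood test, with 0 by DESeq2. No member, 0 of 88, had an unadjusted p under 0.05, against 0.465% of all genes higher and 0.337% lower. The median was 0.17, beside 0 over all genes, and 75 members were positive, against 48.9% of all genes. All 3 pMC left tumours were above all 3 control left tumours for 38 of the 88 members and below them for 0, against 9.7% and 5.08% of all genes. Ndufb8 had the largest value, at 0.73 ± 0.55, and Ndufa7, another accessory subunit of complex I, stood at 0.71 ± 0.5 (adjusted p = 1 for both, edgeR's quasi-likelihood test). The library medians of pMC left and control left tumours had the smallest SDs of the 6 groups, 0.03 and 0.07. Their means were 0.06 and −0.13, and with the length and GC offset 0.08 and 0.01. Ribosomal protein genes were also mostly positive here, 65 of 76 mitochondrial and 68 of 77 cytosolic ones, with medians of 0.18 and 0.23. The part of transcript length in this difference was not tested.

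Right against left was compared within each treatment, with right and left tumours taken as separate samples. In mice with IFN-alpha-pMC 0 of 88 members passed edgeR's quasi-likelihood test, against 2.49% of all genes higher and 0.0404% lower, with 0 higher and 4 lower at an unadjusted p under 0.05 (8.33% and 3.29% of all genes). DESeq2 called 1, Ndufs1, as lower on the right (adjusted p = 0.0198), and 0.343% of all genes lower. The median was −0.48, beside 0.01 over all genes, and 4 of 88 were positive, against 51.7% of all genes. The right tumours were all higher for 0 members and all lower for 5, against 10.5% and 3.58% of all genes. The median was −0.11 without IFN-alpha-pMC left 1, −0.31 without IFN-alpha-pMC right 3 and 0.1 without the 3 libraries that stand apart. In pMC mice the median was 0.09 (0 without pMC right 3). In control mice it was 0.11, and it was 0.22 without control right 1, 0.36 without control right 2 and −0.34 without control right 3. There were 0 calls in either treatment by edgeR's quasi-likelihood test or by DESeq2 (edgeR called 0% of all genes in both). An unadjusted p under 0.05 was found for 0 members, against 1.25% of all genes higher and 0.842% lower in pMC mice, and 0.559% and 0.222% in control mice. Positive values were found for 60 members in pMC mice (50% of all genes) and 72 in control mice (54.5%). In pMC mice the right tumours were all higher for 11 members and all lower for 0, against 9.72% and 10.1% of all genes, and in control mice for 0 and 0, against 0.95% and 1.17%.

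The difference between sides was tested as the right effect minus the left effect. For IFN-alpha-pMC against control 0 of 88 members passed edgeR's quasi-likelihood test and 0 passed DESeq2. At an unadjusted p under 0.05, 0 were higher and 2 lower (4.45% and 1.73% of all genes), and the median was −0.59, with 4 positive (50.8% of all genes). For IFN-alpha-pMC against pMC 0 passed, 0 were higher and 3 lower at an unadjusted p under 0.05 (6.73% and 5.04% of all genes), and DESeq2 called 1 lower (0.397% of all genes). The median was −0.62, with 7 positive (52.2% of all genes). Of all genes, 0% and 0.391% were called in either direction. Without IFN-alpha-pMC left 1 the medians were −0.18 against control and −0.16 against pMC, without IFN-alpha-pMC right 3 they were −0.39 against control and −0.41 against pMC, and without control right 3 the median against control was −0.17. Without the 3 libraries that stand apart, the medians were 0.46 against control and 0.03 against pMC. Both comparisons use the same IFN-alpha-pMC libraries, so their values are not independent.

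**Figure D5:**
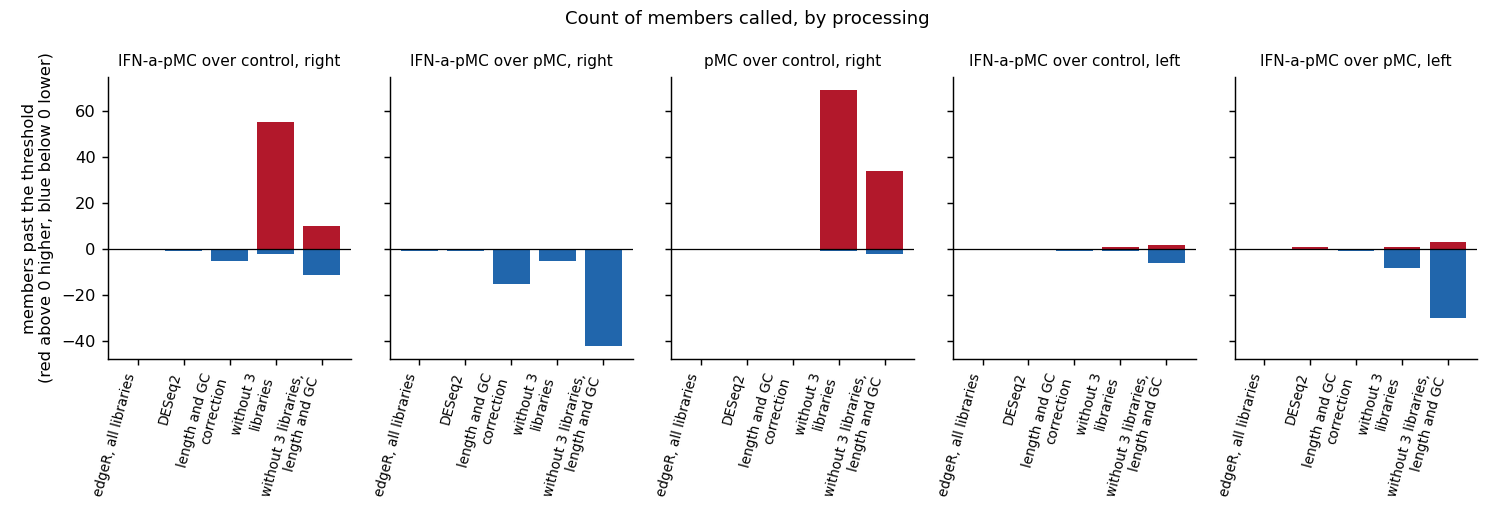
Number of the 88 members past an adjusted p of 0.05 (vertical axis; higher above 0 in red, lower below 0 in blue) under 5 ways of processing, in 5 comparisons. The edgeR fit to all libraries called 1 member. Leaving out 3 libraries called 55 higher for IFN-alpha-pMC and 69 higher for pMC over control on the right, beside 28.4% and 19.5% of all genes. The control right tumours left were then 1 and 2, whose medians over the members were −0.26 and −0.7.

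Other genes of mitochondrial metabolism gave 0 or 1 call a list and comparison, leaving aside genes of glycolysis. Of all genes, 8.78% were called higher and 2.01% lower against control right tumours, 8.88% and 1.21% against pMC right tumours, 4.05% and 2.6% against control left tumours and 2.71% and 1.14% against pMC left tumours, so a count of 0 in a list of 6 to 19 genes is close to that background. Of the 13 tricarboxylic acid cycle genes tested, 0 passed edgeR's quasi-likelihood test in any of the 4 comparisons that set IFN-alpha-pMC tumours against the other groups of their side. In right tumours against control 12 of the 13 were negative, with a median of −0.21. Ogdh, a subunit of the 2-oxoglutarate dehydrogenase complex, stood at −0.72 ± 0.23 (edgeR's quasi-likelihood adjusted p = 0.0541) and Cs, citrate synthase, at −0.47 ± 0.17 (adjusted p = 0.0886). The 11 regulators of mitochondrial biogenesis tested had 0 calls in these comparisons. Ppargc1b, a coactivator of respiratory genes, stood at −0.82 ± 0.31 in IFN-alpha-pMC against control right tumours (edgeR's quasi-likelihood adjusted p = 0.111).

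The remaining lists also had 0 calls in these 4 comparisons: 9 genes of cytochrome c and coenzyme Q synthesis, 10 assembly factors of complex IV, 19 other assembly factors and 6 carriers and channels. Their medians in IFN-alpha-pMC against control right tumours were −0.05, −0.03, −0.04 and −0.04. Against pMC right tumours they were −0.33, −0.14, −0.17 and −0.05. On the left they were 0.23, 0.1, 0.39 and 0.19 against control and 0.26, 0.09, 0.31 and 0.18 against pMC tumours. The 88 members had medians of −0.14, −0.28, 0.57 and 0.24 in these 4 comparisons. In the same order mitochondrial ribosomal genes had −0.06, −0.2, 0.52 and 0.29, and cytosolic ones 0.07, −0.03, 0.73 and 0.46. Of 76 mitochondrial ribosomal genes 1 rose, Mrpl47 in IFN-alpha-pMC against pMC left tumours, at 0.61 ± 0.15 (edgeR's quasi-likelihood adjusted p = 0.0336). Of 77 genes in the cytosolic ribosomal list 1 rose in all 4 comparisons, Rpl3l, which is known as a ribosomal protein of striated muscle, at 2.61 ± 0.44 in IFN-alpha-pMC against pMC right tumours (adjusted p = 0.00066). Of 18 genes of glycolysis and the hypoxia response, 3 rose in IFN-alpha-pMC against control right tumours, 2 against pMC right tumours, 4 against control left tumours and 1 against pMC left tumours, and 0 fell.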

How the data were processed

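RNA-seq of 18 MO4 tumours was used, with groups taken from the labels. The authors deposited raw counts per Ensembl gene ID, 1 table per library, without normalization. Per the submitters' processing notes HISAT2 2.1.0 and HTSeq 0.10.0 were used on build mm9, beside Trimmomatic 0.36, CASAVA 1.8.2, bcl2fastq, FastQC and DESeq2 1.20.0. Neither the annotation release nor the strand setting is stated in the sources used here, and reads of overlapping or antisense genes may be mixed. Reads aligned to several places were not counted for any gene, so members with close pseudogene copies may be undercounted. The libraries were prepared with TruSeq Stranded mRNA, per the labels. The counter's summary rows were left out.

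Symbols, transcript lengths and GC content came from GENCODE M21 (GRCm38). Symbols were matched for 32897 of 37620 IDs, and lengths for 96.9% of the genes tested and all 88 members. A second Ensembl ID of Atp5o in that annotation has no counts here. The build of the promoters differs from that of the files, so no coordinate of the files was used.

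Counts were tested in R 4.3.3 with edgeR 4.0.16: trimmed-mean scaling, filterByExpr (14849 genes) and 1 two-sided quasi-likelihood fit of 6 group means to 18 libraries (12 residual degrees of freedom). The biological coefficient of variation was 23.7%. The SE was the log2 fold change divided by the square root of F. CPM used scaled totals. The length and GC offset was a spline fit (5 degrees of freedom) per library. DESeq2 1.42.0 was an alternative. The scripts were tested on simulated data. No 2 of 153 pairs of libraries agreed within counting noise. The share of the members in all counts was 1.81 to 5.53%.

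The members, gene lists and comparisons were chosen with earlier results of these data known. Genes were named by rule: members past the threshold, otherwise the 4 with the smallest p, together with the muscle isoforms, their partners and a set of core subunits, and the 3 smallest p of each other list. Not all of these are printed, and members named for their level or range, or under an alternative, were chosen after their values were seen.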

Additional observations from a re-analysis of the deposited data

How the results depend on the processing

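Among 317 results for the members named by rule and the comparisons, only those of Ndufs1, Cox6a2 and Cox8b against pMC right tumours were called with all libraries. These passed with 9, 13 and 8 of 16 alternatives each, and the other alternatives are the 18 lost calls. Of all 5408 alternative values, 109 gained a call with the same sign and 18 were called with the opposite sign. A further 5263 stayed on their side of the threshold, mostly as uncalled values. Of these 5263, 593 changed sign without a call. The cause of these changes was not tested, and 3 libraries a group limit every count. The number of all genes called in a setting is given as "all" after the members. In IFN-alpha-pMC against control right tumours (0 members called) the count was 1 with DESeq2 size factors (all 1587) and 1 with the DESeq2 test (all 2126). It was 5 with the length and GC correction (all 2425) and 1 with the replicate block and that correction (all 1076). Without the 3 libraries that stand apart it was 57 (all 8175), and with the correction as well 21 (all 6461). With single libraries left out it was 0 to 1. Against pMC right tumours (1 called) it was 15 with the correction (all 2671). It was 0 with the muscle score (all 757), with no filter on low counts (all 1585), with only the groups compared (all 1419) and with the replicate block (all 608). Without the 3 libraries it was 5 (all 4287), and with the correction as well 42 (all 5018). With single libraries left out it was 0 to 1. For pMC against control right tumours (0) it was 70 without the 3 libraries (all 5067), and 36 with the correction as well (all 2459). In IFN-alpha-pMC against control left tumours (0) it was 1 with the correction (all 669) and 2 with the block and the correction (all 1330). Without the 3 libraries it was 2 (all 4331), and with the correction as well 8 (all 3012). Against pMC left tumours (0) it was 1 with DESeq2 (all 2028), the correction (all 439), the block (all 2858), or block and correction (all 842). Without the 3 libraries it was 9 (all 4142), and with the correction as well 33 (all 3175). Right against left in IFN-alpha-pMC mice (0) gave 1 with DESeq2 (all 586) and 1 without the 3 libraries and with the correction (all 435). The side difference gave 1 against control without the 3 libraries (all 761) and 1 against pMC with DESeq2 (all 271).

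Over all 88 members, 32 were called with the opposite sign in IFN-alpha-pMC against control right tumours without the 3 libraries, and 6 with the correction as well. Against pMC left tumours these were 4 and 25, and against control left tumours 0 and 5. Among the members named by rule, these were, without the 3 libraries, in IFN-alpha-pMC against control right tumours Atp5c1 0.63, Cox4i1 0.58, Cox5b 0.51, Cox7a2 0.49, Cox8a 0.43, Ndufa4 0.51, Ndufa9 0.43, Sdhd 0.64 and Uqcrfs1 0.37. Against pMC left tumours it was Cox4i1 at −0.62, and with the correction Atp5c1 −0.27, Cox7a2 −0.32, Ndufa4 −0.59, Sdhd −0.62 and Uqcrc2 −0.63. Against control left tumours Cox7a1 stood at −0.86, and with the correction at −0.78 beside Ndufa4 at −0.4.

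The labels do not say whether same-numbered right and left tumours shared a mouse. Their deviations correlated from −0.25 to 0.6 and were not above 0.1 in every pair, so the numbers were not taken as pairs, and a shared mouse cannot be told from these values. Those of same-numbered tumours of 2 treatments correlated from −0.76 to 0.37. With the number as a block, right against left gave 0 called members in each treatment. With the number as a replicate block, the call of Ndufs1 against pMC right tumours was lost (edgeR adjusted p = 0.23), Cox8b likewise (adjusted p = 0.058), and Cox6a2 was called against control left tumours (log2 fold change 2.37, adjusted p = 0.0281).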
